A study of Abies pinsapo with 24 samples.

Results

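The AP2/ERF family of Abies pinsapo (Spanish fir), with its DREB and RAV branches, was followed through needles and roots, spring and autumn, and a high and a low mountain site. Members were features of the deposited count table whose protein domains include the AP2 domain, or whose best protein hit is named as an ethylene-responsive factor, a dehydration-responsive element-binding protein, an AP2/ERF protein or RAV. The rule found 84 of 51046 features. An AP2 domain was annotated in 61 of them and the other 23 entered by name. By best hit, 69 were ERF, 7 AP2-like, 5 DREB and 2 RAV, with 1 other. Reads were counted for 64 members. The other 20 were at 0 in all 24 libraries, and each of these 20 overlaps another feature of the table, whereas none of the 64 does. In the whole table, 19401 of 19452 features with the same coordinates as another were at 0 in all 24 libraries. The 0 of these 20 members is therefore not read as a lack of expression. The deposited annotation itself places 77 of the 84 in an AP2/ERF family. No member has a best hit to a DREB1 (CBF) protein, the cold-responsive branch in Arabidopsis. Gene names below are those of best hits, 70 of them in Arabidopsis thaliana, and are not established names in fir.

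AP2/ERF proteins bind DNA through the AP2 domain. Many ERF proteins bind the GCC box of ethylene-responsive promoters, and DREB proteins bind the dehydration-responsive element of drought, cold and heat genes. RAV proteins carry a B3 domain beside the AP2 domain, and AP2-like proteins are best known from flowers, seeds and meristems.

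Needles and roots came from adult trees of 30 to 50 years, with no treatment or engineered allele named in the labels. Spring samples were taken in May 2023 and autumn samples in September 2022, at Ronda (1700 to 1800 m, the upper site) and at Yunquera (1100 to 1200 m, the lower site). There were 8 groups of 3 libraries, and the individual numbers in the labels were taken as 6 trees, trees 4 to 6 at Ronda and trees 1 to 3 at Yunquera. Season coincides with the year of harvest, and organ with the extraction method, since a kit is named for roots, so neither pair can be told apart.

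Total counts ran from 13355301 to 27427263 per library. Light harvesting and photosystem features, which mark green tissue, took 2.79 to 5.18% of all counts over 11 needle libraries but only 0.0340 to 0.115% over 11 from roots. The other 2 libraries went against their organ label: Ronda replicate 3 of the spring needles had 0.0297%, and Ronda replicate 2 of the spring roots had 2.99%. Both were set aside, which left 5 spring and 6 autumn libraries in each organ, and the result with all 24 as labelled is given where it ends a call. Levels are CPM, counts scaled to a common library size, and a count of 0 is read as up to 3 counts. In whole-organ RNA, fewer cells of a type and less RNA per cell cannot be told apart.

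The family took a small share of needle and root RNA. In needles it took 0.0982 to 0.116% of counts in spring and 0.127 to 0.182% in autumn, ranges that do not overlap. In roots it took 0.151 to 0.238% in spring and 0.160 to 0.228% in autumn. RAV2 alone was 0.134 to 1.16% of the family's counts in spring needles and 6.93 to 34.3% in autumn needles. Without RAV2 the family's share was 0.0971 to 0.116% in spring needles and 0.103 to 0.141% in autumn needles, which overlap.

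Per kilobase of feature length, RAP2-2 (Gene_6167) had the highest level in spring needles, at 139 ± 10.5 CPM per kb (SD, n = 5), followed by a match to tobacco ERF4 (Gene_39606) at 57.4 ± 19.6 CPM per kb. RAP2-2 is a group VII factor, a class that in Arabidopsis is stabilised under low oxygen and switches on fermentation genes. In autumn needles RAV2 (Gene_52918) came first at 172 ± 108 CPM per kb and RAP2-2 next at 143 ± 10.3 CPM per kb (SD, n = 6), within the spread of RAV2, which had only 2.89 ± 2.56 CPM per kb in spring needles. In spring roots RAP2-2 stood at 303 ± 54.4 CPM per kb, followed by ERF3 (Gene_70712) at 74.5 ± 58.2 CPM per kb. In autumn roots RAP2-2 had 208 ± 43.1 CPM per kb and ERF010 (Gene_10785) 120.3 ± 69.0 CPM per kb, with RAV2 at 59.5 ± 56.9 CPM per kb in autumn roots and 0.162 ± 0.166 CPM per kb in spring roots. The order is not resolved where these spreads overlap, as between RAV2 and RAP2-2 in autumn needles. Over both seasons DREB2A (Gene_75725) had 3.11 ± 2.37 CPM per kb in needles and 2.27 ± 1.87 in roots (SD, n = 11 each).

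RAV2 showed a wide seasonal range. The feature lies on reference sequence ap_49580, bases 1 to 2254, minus strand, and encodes 473 residues with both the AP2 and the B3 domain. In Arabidopsis RAV2, also called TEMPRANILLO 2, is a repressor of flowering. In spring needles it had 1.62 and 1.86 CPM at Ronda and 13.4, 12.1 and 3.54 CPM at Yunquera. In autumn needles it ran from 107 to 638 CPM with a median of 425 CPM. Every spring needle library lay below every autumn needle library, and 5 of 5 trees sampled in both seasons were lower in spring. The fitted log2 fold change of spring over autumn was -6.30 ± 0.45 (SE; edgeR quasi-likelihood test, adjusted p = 0.000115).

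In spring roots RAV2 had 0.398 and 0.386 CPM at Ronda and 0, 0.956 and 0.0916 CPM at Yunquera. In autumn roots it ran from 33.2 to 379 CPM with a median of 82.8 CPM. The root groups did not overlap either, and RAV2 fell in spring roots by 8.22 ± 1.01 on the log2 scale (adjusted p = 0.00400). The seasonal changes of needles and roots were not shown to differ (difference 1.98 ± 0.82, adjusted p = 0.211). Without each library in turn, RAV2 remained called in both organs, at -6.44 to -6.07 in needles and -9.64 to -7.86 in roots on the log2 scale, where Yunquera spring replicate 2 decides the lower end.

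**Figure D1:**
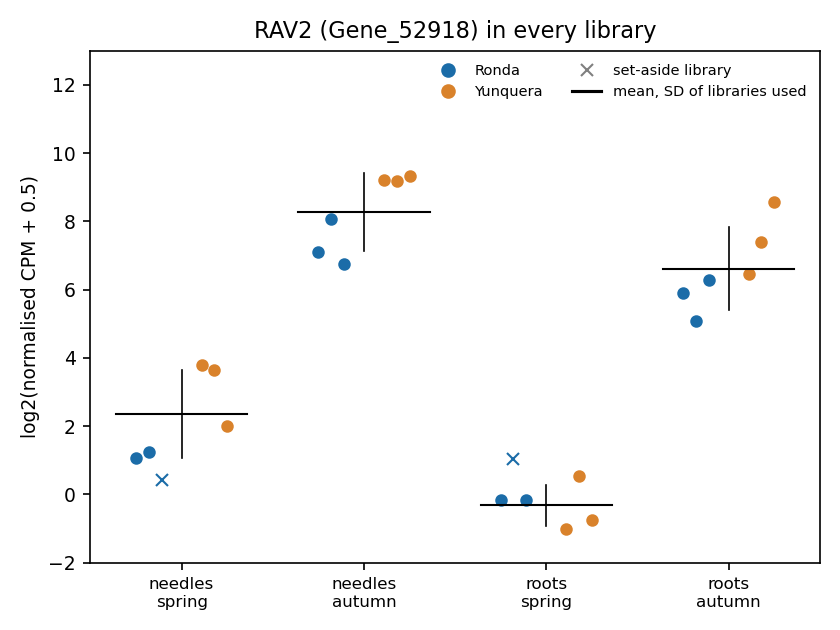
RAV2 in each of the 24 libraries, as log2(CPM + 0.5) on the vertical axis, by organ and season. Dots are libraries, crosses are the 2 set-aside libraries, and lines show the mean and SD of the libraries used. Spring libraries lie below autumn libraries in both organs.

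RAV2 was also higher in needles than in roots, by a log2 fold change of 3.46 ± 0.69 in spring (adjusted p = 0.00108) and 1.48 ± 0.50 in autumn (adjusted p = 0.0320). Without each library in turn the spring value was 3.17 to 4.85, the highest without spring roots of Yunquera replicate 2. In autumn the organs overlap, and the call was lost with the tree as a block (adjusted p = 0.0589). The autumn call was also lost without the needle libraries of tree 1 (0.0578) and in 7 of 22 fits without a library (up to 0.0773). By site, autumn needles had 137, 271 and 107 CPM at Ronda and 596, 579 and 638 CPM at Yunquera. These do not overlap, but the test did not pass (-1.80 ± 0.45, adjusted p = 0.0776). The other RAV2 feature (Gene_81118) averaged 0.979 ± 0.606 CPM in spring needles and 0.443 ± 0.573 CPM in autumn needles and did not pass the test (adjusted p = 0.344).

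The features most like RAV2 over the 22 libraries, by Pearson correlation of log2(CPM + 0.5) with 21599 features compared, were a protein phosphatase 2C (Gene_15815, r = 0.94), a Dof zinc finger protein, PBF (Gene_21319, r = 0.92), and 3 features without a named hit (r = 0.93, 0.91 and 0.91). Gene_15815 averaged 151 CPM in spring needles against 445 CPM in autumn needles, and Gene_21319 averaged 40.3 CPM in spring needles against 246 CPM in autumn needles. Within the family DREB2A came closest (r = 0.76), then DREB2B (0.65), RAP2-4 (0.60), ERF2 (0.57) and ERF4 Gene_15103 (0.52). These values describe 22 libraries that share their groups.

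In needles, season moved members in both directions. Of 44 members with enough reads to test, 13 passed, 5 higher and 8 lower in spring. Over all 20560 features tested, 15.3% passed, 8.79% higher and 6.49% lower. The median log2 fold change was 0.21 for the tested members and 0.03 for all features. DREB2A, DREB2B, RAV2, ERF2 and group VII factors were among those that fell, and ERF003 and the APETALA2 match among those that rose. Dividing-tissue features moved with season as well: 15 of 36 tested were higher in spring needles and 0 lower, and their summed share of counts was 0.0719 to 0.176% in spring and 0.0606 to 0.102% in autumn. Of 59 light harvesting and photosystem features tested, 7 were higher and 0 lower. Of 15 pollen and reproductive features tested, 0 were higher and 2 lower, with a summed share of 0.0308 to 0.173% in spring needles (median 0.0399%) and 0.110 to 0.485% in autumn needles (median 0.188%). The part of these 3 lists in the changes below was not tested.

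DREB2A, which in Arabidopsis activates drought and heat genes, had 5.67 and 5.10 CPM at Ronda and 4.27, 3.85 and 3.98 CPM at Yunquera in spring needles. In autumn needles it ran from 23.4 to 40.9 CPM with a median of 25.6 CPM. The groups did not overlap, and DREB2A fell by 2.61 ± 0.19 on the log2 scale (adjusted p = 0.000117), in 5 of 5 trees. DREB2B (Gene_30132), a match to a rice protein of the same class, had 0.759 and 0.900 CPM at Ronda and 1.44, 0.682 and 0.600 CPM at Yunquera in spring needles. In autumn needles it ran from 3.69 to 7.56 CPM, median 4.94 CPM. Its groups did not overlap either, and it fell by 2.67 ± 0.35 (adjusted p = 0.00164), in 5 of 5 trees. Both calls held in every alternative run, including all 24 libraries as labelled and the tree as a block. The other 2 DREB members tested were not called by season in needles.

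ERF2 (Gene_76550), a match to a GCC-box activator of a tobacco species, had 2.98 and 2.58 CPM at Ronda and 11.03, 18.9 and 20.7 CPM at Yunquera in spring needles. In autumn needles it ran from 21.997 to 78.6 CPM, median 45.8 CPM. All spring libraries lay below autumn, although the highest spring and lowest autumn values nearly meet. It fell by 2.82 ± 0.41 (adjusted p = 0.00294; 0.0628 with all 24 libraries). It was the only call among 5 tested members of group IX, the GCC-box activators.

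Of the 4 group VII factors tested, 2 were lower in spring needles. ERF071 (Gene_29205) had 25.9 and 27.2 CPM at Ronda and 27.7, 27.5 and 26.1 CPM at Yunquera in spring, and ran from 39.1 to 60.2 CPM with a median of 41.9 CPM in autumn. Its spring libraries were almost equal and all lay below autumn. It fell by 0.80 ± 0.13 (adjusted p = 0.00496; 0.126 with all 24 libraries). ERF073 (Gene_13876) averaged 21.3 ± 13.5 CPM in spring (SD, n = 5) and 30.1 ± 13.1 CPM in autumn (SD, n = 6), with overlapping groups. Its fall of 0.82 ± 0.23 (adjusted p = 0.0402) was lost with the tree as a block (0.0717), with all 24 libraries (0.113), with no filter (0.0570) and in 9 of 11 fits without a library (up to 0.177). RAP2-2 averaged 370.0 ± 27.9 CPM in spring and 379.8 ± 27.4 CPM in autumn and did not pass (-0.03 ± 0.10, adjusted p = 0.892).

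ERF003 (Gene_69823) had the opposite season. In spring needles it had 11.03 and 5.58 CPM at Ronda and 8.09, 3.70 and 7.47 CPM at Yunquera. In autumn needles it ran from 0 to 0.538 CPM, median 0.373 CPM. The lowest spring library was far above the highest autumn library. It rose by 4.75 ± 0.59 (adjusted p = 0.00130), in 5 of 5 trees, and remained called in every alternative run, at 5.35 without Yunquera autumn replicate 1. The other ERF003 feature (Gene_31588) had 0 to 8.88 CPM in spring needles and 0 to 1.25 CPM in autumn needles, with overlap, and was not called.

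The AP2-like members split, with 1 of 5 tested higher and 1 lower. The match to APETALA2 (Gene_68412; ap_71602, bases 1 to 4025, plus strand), a flower and seed regulator in Arabidopsis, had 132 and 149.5 CPM at Ronda and 151, 115 and 125 CPM at Yunquera in spring needles. In autumn needles it ran from 49.6 to 113 CPM, median 76.1 CPM. The spring libraries were all higher, by a narrow margin over autumn at Ronda. It rose by 0.88 ± 0.09 (adjusted p = 0.000618; 0.240 with all 24 libraries). WRI1 (Gene_66250), which in Arabidopsis activates fatty acid synthesis in seeds, averaged 0.961 ± 1.02 CPM in spring and 4.97 ± 4.17 CPM in autumn, with overlap. Its fall of 2.61 ± 0.58 (adjusted p = 0.0164) was lost with the tree as a block (0.0791) and without either Ronda spring library (up to 0.0843).

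The other calls in needles were DREB-side ERF features, of which 3 of 14 tested were higher and 1 lower. ERF053 (Gene_40042), drought-induced in Arabidopsis, averaged 77.1 ± 27.7 CPM in spring and 44.0 ± 10.4 CPM in autumn. It rose by 0.83 ± 0.19 (adjusted p = 0.0201), a call lost without the needle libraries of tree 1 (0.0620), without Yunquera autumn replicate 3 and without either Ronda spring library (up to 0.0705). ERF010 averaged 116 ± 6.15 CPM in spring and 157 ± 40.6 CPM in autumn and fell by 0.40 ± 0.09 (adjusted p = 0.0145). That call was lost with the tree as a block (0.0683), with all 24 libraries (0.0753) and without either Ronda spring library (up to 0.0650). The fall was seen at Yunquera, from 179.9, 192 and 206 CPM in autumn to 108, 124 and 119 CPM in spring. At Ronda ERF010 had 115, 133 and 116 CPM in autumn and 113 and 115 CPM in spring, with overlap. Whether its seasonal change differs between sites was not tested.

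An ERF017 feature on ap_56758 averaged 14.2 ± 14.0 CPM in spring needles and 2.66 ± 1.25 CPM in autumn needles and rose by 2.35 ± 0.46 (adjusted p = 0.00982; 0.101 with the tree as a block). ERF016 (Gene_68488) rose by 3.65 ± 0.95 (adjusted p = 0.0308) with 0.556 and 19.1 CPM at Ronda and 0.333, 0.682 and 0.436 CPM at Yunquera in spring needles and 0 to 0.436 CPM in autumn needles. A single library, Ronda replicate 2, stands far above the rest. Without it the log2 fold change was 1.62 (adjusted p = 0.3598), without autumn Ronda replicate 2 it was 4.59, and the call was lost in 6 of 11 fits without a library and without the needle libraries of tree 1 (0.0517).

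**Figure D2:**
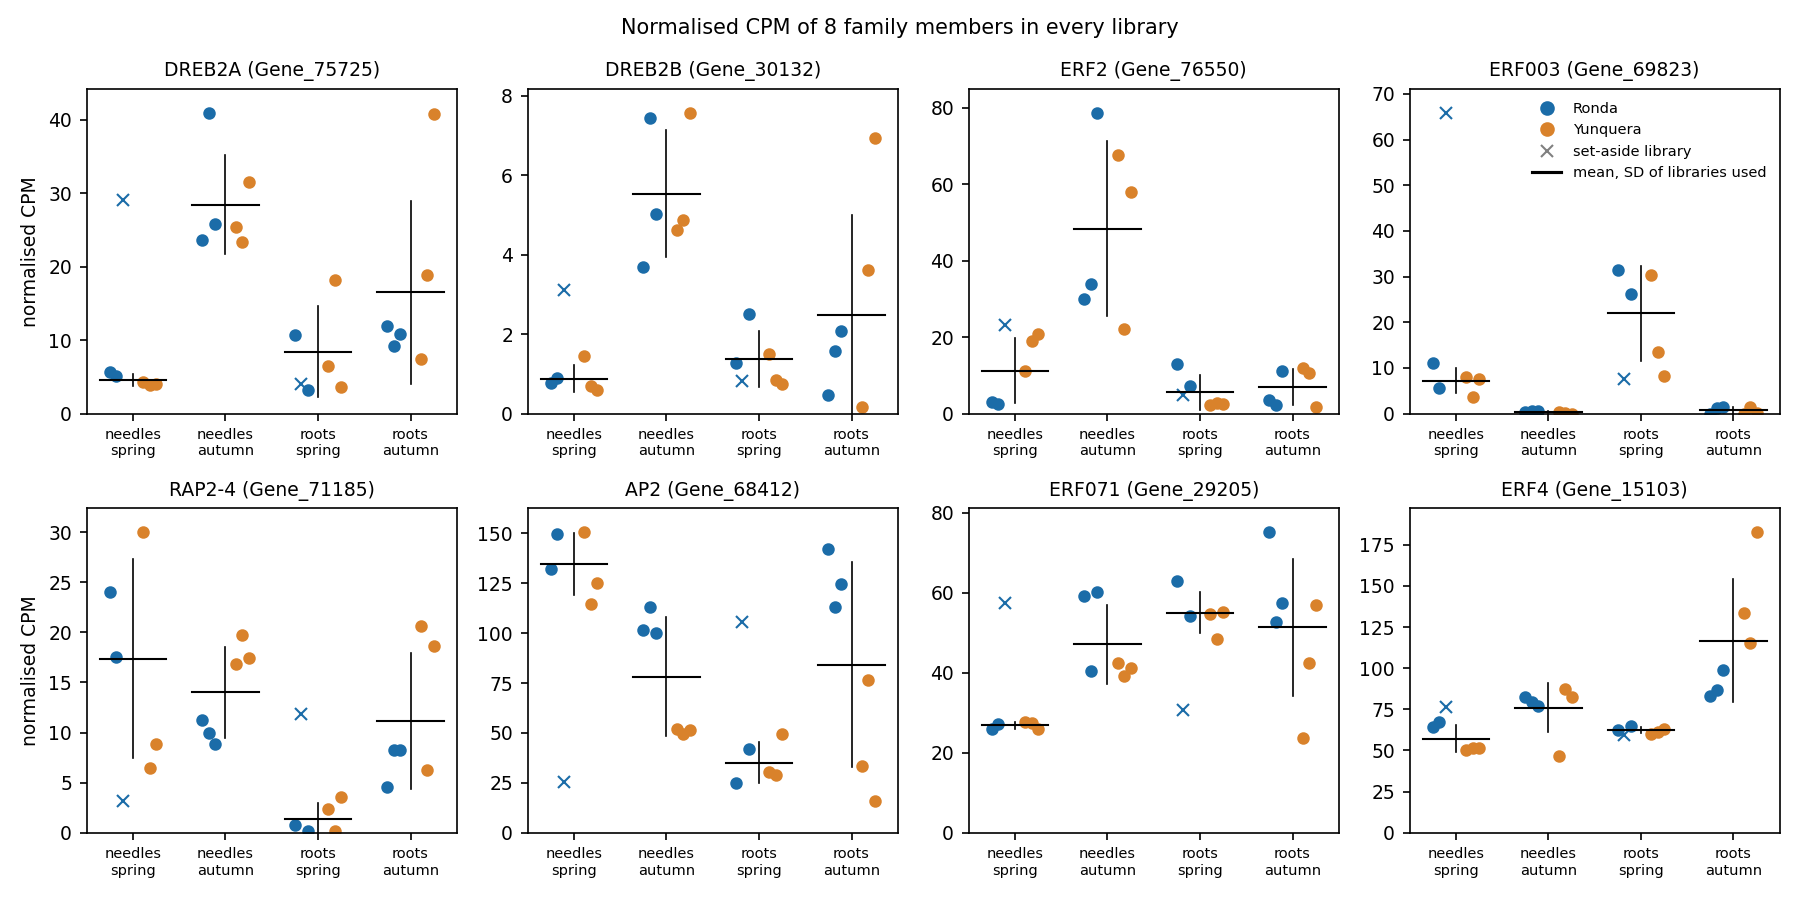
CPM of 8 members in each of the 24 libraries, by organ and season, on linear axes from 0. Dots are libraries, crosses the 2 set-aside libraries, and lines the mean and SD of the libraries used. DREB2A, DREB2B and ERF2 are low in spring needles, ERF003 is high in spring in both organs, and RAP2-4 and AP2 are lower in spring roots than in spring needles.

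In roots fewer members passed by season. Of 47 tested, 4 passed, 1 higher and 3 lower in spring. Over all 18538 features tested, 5.54% passed, 2.41% higher and 3.13% lower. The median log2 fold change was 0.89 for the tested members and 0.03 for all features. The member median rests on single libraries: it was -0.70 without Ronda spring replicate 1 and 0.21 without Yunquera spring replicate 2. Features matching ERF013, ERF016, ERF017 or ERF018, described below, made up 16 of the 47. With the tree as a block 2 members were called, RAV2 and RAP2-4, against 631 of all 18538 features. DESeq2 called 8 of 41, against 15.04% of all features. Of 32 light harvesting and photosystem features tested in roots, 4 were lower in spring, and their part in these changes was not tested.

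ERF003 had 31.4 and 26.2 CPM at Ronda and 30.3, 13.5 and 8.25 CPM at Yunquera in spring roots, and ran from 0 to 1.44 CPM with a median of 0.642 CPM in autumn roots. The spring libraries were all higher here too. It rose by 5.08 ± 1.07 (adjusted p = 0.0253), but the call was lost with the tree as a block (0.0697) and in 6 of 11 fits without a library (up to 0.0634). Without Yunquera autumn replicate 2 the value was 6.49.

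RAP2-4 (Gene_71185), a light- and drought-responsive factor in Arabidopsis, had 0.763 and 0.129 CPM at Ronda and 2.39, 0.151 and 3.57 CPM at Yunquera in spring roots. In autumn roots it ran from 4.61 to 20.6 CPM, median 8.28 CPM. The groups did not overlap, and it fell by 3.44 ± 0.81 (adjusted p = 0.0381) in 5 of 5 trees. The call was lost with all 24 libraries (0.270) and in 8 of 11 fits without a library (up to 0.135), with a value of -4.33 without Ronda spring replicate 1. A match to tobacco ERF4 (Gene_15103) had 62.2 and 65.1 CPM at Ronda and 59.8, 61.5 and 62.9 CPM at Yunquera in spring roots, and ran from 83.3 to 183 CPM with a median of 107 CPM in autumn roots. The spring libraries were nearly equal and all below autumn. It fell by 0.88 ± 0.17 (adjusted p = 0.0196), which was lost with the tree as a block (0.0732) and in 5 of 11 fits without a library (up to 0.0862).

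RAV2 and ERF003 were called in the same direction in both organs, and no member was called in opposite directions. Only 4 members were called in roots, and the share of all features called in both organs was not computed. These counts therefore have no background beside them. DREB2A averaged 8.44 ± 6.24 CPM in spring roots (SD, n = 5) and 16.5 ± 12.5 CPM in autumn roots (SD, n = 6) and did not pass (-0.93 ± 0.56, adjusted p = 0.362). DREB2B averaged 1.37 ± 0.705 CPM in spring roots and 2.47 ± 2.51 CPM in autumn roots (adjusted p = 0.674).

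**Figure D3:**
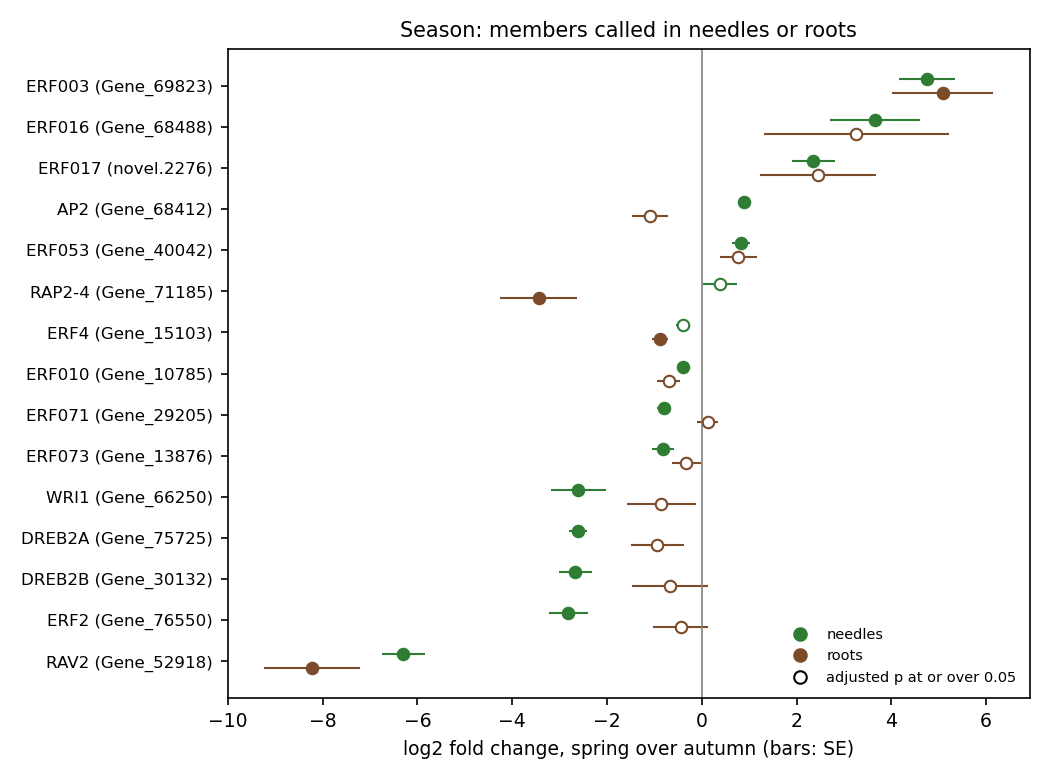
Log2 fold change of spring over autumn with its SE, in needles and in roots, for the 15 members called in either organ; open symbols did not pass the adjusted threshold of 0.05. RAV2 lies at -6.30 in needles and -8.22 in roots, and ERF003 at 4.75 in needles and 5.08 in roots.

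The seasonal change itself differed between needles and roots for 2 of 55 members tested, both higher on the needle side. Over all 21600 features tested, 3.62% passed, 2.69% higher and 0.931% lower. For RAP2-4 the change in needles exceeded that in roots by 3.85 ± 0.85 on the log2 scale (adjusted p = 0.0173). It averaged 17.4 ± 9.92 CPM in spring needles and 14.0 ± 4.56 CPM in autumn needles, and 1.40 ± 1.52 CPM in spring roots and 11.1 ± 6.79 CPM in autumn roots. That call was lost with all 24 libraries (0.405), without the needle libraries of tree 1 (0.0525) and without spring roots of Ronda replicate 3 (0.0599), and the value was 4.72 without spring roots of Ronda replicate 1.

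For AP2 (Gene_68412) the difference was 2.01 ± 0.40 (adjusted p = 0.00830). It rose in spring needles, and averaged 35.1 ± 10.2 CPM in spring roots and 84.3 ± 51.3 CPM in autumn roots, where the change alone did not pass (adjusted p = 0.127). The difference held without each library in turn and was lost with all 24 libraries (0.268). For ERF2 and ERF071, called in needles and not in roots, the difference between the organs did not pass (adjusted p = 0.0739 for ERF2 and 0.0732 for ERF071).

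Between organs, both tested DREB3 features, 1 TINY feature and RAV2 Gene_52918 were higher in needles in both seasons, and ERF3, ERF9, RAP2-2, ERF073 and ERF010 were among those lower in both. In spring 17 of 55 members passed, 8 higher and 9 lower in needles than in roots. Over all features in spring 28.2% passed, 19.3% higher and 8.94% lower. In autumn 15 of 55 passed, 6 higher and 9 lower. Over all features in autumn 32.3% passed, 18.8% higher and 13.4% lower. The median log2 fold change of needles over roots was -0.70 in spring and -0.45 in autumn for the tested members, and 0.11 in spring and 0.18 in autumn for all features. The autumn member median did not hold, at 0.01 without Ronda autumn roots replicate 3, -0.03 with no filter and -0.16 with the tree as a block. Of 4 DREB members tested, 2 were higher in needles in each season, both tested ERF features of the EAR repressor class were lower in each season, and of 4 group VII factors 3 were lower in spring and 2 in autumn. In both seasons 5 members were higher and 6 lower. The share of all features called in both seasons was not computed, so these counts have no background beside them. The organ comparisons use the same libraries as the seasonal ones.

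ERF060 (Gene_66960; ap_70303, bases 1 to 2167, minus strand), a DREB-side ERF, was found in needles and almost nowhere in roots. Spring needles had 33.7 and 12.3 CPM at Ronda and 8.92, 9.51 and 14.6 CPM at Yunquera. In spring roots 4 libraries were at 0 and the last, from Yunquera, had 0.137 CPM. Summed counts were 1495 in spring needles and 3 in spring roots, a ratio of 614 after scaling (95% exact counting interval 210 to 2979). This interval covers counting error only and leaves out the spread between libraries. The edgeR adjusted p was 5.12e-06, and 0.0580 with all 24 libraries. Autumn needles had 6.93 to 22.1 CPM, median 16.0, and all 6 autumn root libraries were at 0. The autumn level was at least 528-fold higher in needles, taking 3 counts over the root group as the limit (adjusted p = 1.02e-06). Without Ronda autumn needles replicate 1 this bound was 480-fold. The other ERF060 feature (Gene_36539) did not share this, with 0 to 1.07 CPM in spring needles and 0 to 4.32 CPM in spring roots.

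The tested DREB3 features lay on the same side. Another DREB3 match (Gene_21776) had only 20 counts over the 22 libraries and was not tested. Gene_70849 had 5.21 and 21.4 CPM at Ronda and 0, 1.41 and 4.31 CPM at Yunquera in spring needles, while all 5 spring root libraries were at 0. It was at least 247-fold higher in needles (adjusted p = 0.00216; 0.211 with all 24 libraries), and at least 105-fold without Ronda replicate 2, which has most of the level. Gene_19951 had 1.67 and 6.72 CPM at Ronda and 0, 0.146 and 2.45 CPM at Yunquera in spring needles, and was at 0 in every root library used. It was at least 84.2-fold higher in spring needles (adjusted p = 0.0134) and at least 96.0-fold higher in autumn needles (adjusted p = 0.00728). Without Ronda replicate 2 the spring bound was 40.9-fold. The spring call of Gene_19951 was lost with all 24 libraries (0.233) and without either Ronda spring root library (up to 0.0562). Both features were at 0 in spring needles of Yunquera replicate 1 and in autumn needles of Yunquera replicate 2. The organs therefore overlap at 0 in both seasons. The autumn call of Gene_70849 rested on 97 counts in needles and 2 in roots (adjusted p = 0.0290) and was lost with the tree as a block (0.0672), with all 24 libraries (0.131) and in 4 of 22 fits without a library (up to 0.171).

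TINY (Gene_64584), whose overexpression dwarfs Arabidopsis, averaged 1.496 ± 1.27 CPM in spring needles and 0.0366 ± 0.0580 CPM in spring roots (adjusted p = 0.00410). In autumn it averaged 2.01 ± 1.80 CPM in needles and 0.155 ± 0.143 CPM in roots (adjusted p = 0.0157). The log2 fold changes were 5.02 ± 1.18 in spring, with 6.81 without roots of Ronda replicate 1 and 5.89 without roots of Yunquera replicate 2, and 3.28 ± 0.98 in autumn, with 4.81 without roots of Yunquera replicate 3. Both calls held without each library in turn, but the organs overlap in both seasons. Spring needles of Yunquera replicate 1 were at 0, and spring roots reached 0.133 CPM. Autumn needles had 3.53, 3.27 and 4.07 CPM at Ronda and 0.436, 0.122 and 0.611 CPM at Yunquera, and autumn roots reached 0.367 CPM.

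Several needle-side calls were made in 1 season. AP2 averaged 134 ± 15.5 CPM in spring needles and 35.1 ± 10.2 CPM in spring roots (1.95 ± 0.30, adjusted p = 0.000114). In autumn it averaged 78.1 ± 29.8 CPM in needles and 84.3 ± 51.3 CPM in roots (adjusted p = 0.924). RAP2-4 was higher in spring needles by 4.14 ± 0.71 (adjusted p = 0.000278; 0.0691 with all 24 libraries), at 5.03 without spring roots of Ronda replicate 1, and did not pass in autumn (adjusted p = 0.747). The season-by-organ tests above are also the tests of how these organ differences vary with season.

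ERF2 averaged 48.3 ± 22.9 CPM in autumn needles and 6.87 ± 4.76 CPM in autumn roots (2.75 ± 0.48, adjusted p = 0.000291), with no overlap, and was not called in spring (adjusted p = 0.597). CRF1 (Gene_66229), a cytokinin response factor, had 0 to 2.56 CPM in spring needles and was at 0 in all spring root libraries (adjusted p = 0.0268). Its call was lost with the tree as a block (0.102), with all 24 libraries (0.178), by DESeq2 (0.128) and in 4 of 22 fits without a library (up to 0.0893).

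On the root side, RAP2-2 had 419 and 350.1 CPM at Ronda and 356, 357 and 369 CPM at Yunquera in spring needles. In spring roots it had 853 and 712 CPM at Ronda and 639, 806 and 1017 CPM at Yunquera. The lowest root library was well above the highest needle library, and RAP2-2 was lower in needles (-1.12 ± 0.17, adjusted p = 7.37e-05). In autumn it averaged 379.8 ± 27.4 CPM in needles and 552 ± 115 CPM in roots (-0.61 ± 0.15, adjusted p = 0.00444; 0.0680 with all 24 libraries). ERF073 was also lower in needles, with a log2 fold change of -1.48 ± 0.30 in spring (adjusted p = 0.00129) and -1.03 ± 0.26 in autumn (adjusted p = 0.00643). ERF071 averaged 26.9 ± 0.822 CPM in spring needles and 55.0 ± 5.17 CPM in spring roots (adjusted p = 0.000619; 0.0679 with all 24 libraries), and did not pass in autumn (adjusted p = 0.486).

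ERF3 and ERF9 belong to the ERF class that carries a repression motif in tobacco and Arabidopsis. ERF3 (Gene_70712) had 15.6 to 33.4 CPM in autumn needles, median 21.8, and 65.1 to 264 CPM in autumn roots, median 106. These do not overlap (-2.48 ± 0.53, adjusted p = 0.00163). Its spring call (-1.73 ± 0.58, adjusted p = 0.0337) was lost with the tree as a block (0.157), with all 24 libraries (0.676), without the needle libraries of tree 1 (0.0516) and in 5 of 22 fits without a library, at -0.57 without Ronda spring roots replicate 1 (adjusted p = 0.476).

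ERF9 (Gene_12439) averaged 2.45 ± 0.681 CPM in autumn needles and 11.1 ± 9.32 CPM in autumn roots (-2.21 ± 0.57, adjusted p = 0.00625). In spring it averaged 3.19 ± 1.23 CPM in needles and 19.7 ± 15.3 CPM in roots (-2.47 ± 0.64, adjusted p = 0.00795). The spring call was lost with all 24 libraries (0.497), without Ronda spring needles replicate 1, and without Ronda spring roots replicate 1, where the value was -1.31 (adjusted p = 0.126).

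ERF1A (Gene_18262), a GCC-box activator in Arabidopsis, had 0.405 and 0.600 CPM at Ronda and 1.44, 2.10 and 1.47 CPM at Yunquera in spring needles. In spring roots it had 40.8 and 0.193 CPM at Ronda and 16.9, 43.1 and 18.0 CPM at Yunquera. One Ronda root library lay below all needle libraries and the other root libraries far above them. It was lower in needles (-4.68 ± 1.17, adjusted p = 0.00635), but without Ronda spring roots replicate 1 the value was -1.35 (adjusted p = 0.386), and the call was lost with all 24 libraries (0.400). In autumn it was lower in needles as well (-2.82 ± 0.97, adjusted p = 0.0346), a call lost with all 24 libraries (0.117), without the needle libraries of tree 1 (0.0804) and in 8 of 22 fits without a library (up to 0.138, at -1.89 without Ronda autumn roots replicate 2). The other ERF1A features were not called between organs. Over both seasons Gene_67122 averaged 3.54 CPM per kb in needles and 0.866 in roots. Gene_33958, Gene_78104 and Gene_34273 also averaged higher in needles, and Gene_65974 higher in roots.

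TOE3 (Gene_26203), an AP2-class floral regulator in Arabidopsis, averaged 0.221 ± 0.238 CPM in spring needles and 2.93 ± 0.880 CPM in spring roots, with no overlap (-4.16 ± 0.97, adjusted p = 0.00374). ERF114 (Gene_68390) averaged 0.325 ± 0.478 CPM in spring needles and 4.86 ± 3.93 CPM in spring roots (-4.86 ± 1.32, adjusted p = 0.0109), and lost its call without Ronda spring needles replicate 2 or Ronda spring roots replicate 1 (up to 0.0789). Its value was -3.53 without those roots, -6.03 without Ronda spring needles replicate 1 and -5.50 without Yunquera spring needles replicate 1. ERF010 averaged 157 ± 40.6 CPM in autumn needles and 320.0 ± 184 CPM in autumn roots (-0.99 ± 0.18, adjusted p = 0.000312). In spring its log2 fold change was -0.65 ± 0.20 (adjusted p = 0.0189), lost with all 24 libraries (0.113) and without either Ronda spring needle library (up to 0.0533).

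Another 3 members were lower in needles in autumn. ERF4 Gene_15103 averaged 76.1 ± 14.8 CPM in needles and 117 ± 37.3 CPM in roots (-0.66 ± 0.15, adjusted p = 0.00289), and held in every alternative run. ERF016 Gene_65453 averaged 11.8 ± 5.04 CPM in needles and 24.4 ± 8.48 CPM in roots (adjusted p = 0.0466), and lost its call with all 24 libraries (0.107) and in 15 of 22 fits without a library (up to 0.113). ERF017 Gene_81100 rested on 2 counts in needles and 165 in roots (adjusted p = 0.0444), and was lost with the tree as a block (0.0916), with all 24 libraries (0.0792) and in 10 of 22 fits without a library (up to 0.157).

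**Figure D4:**
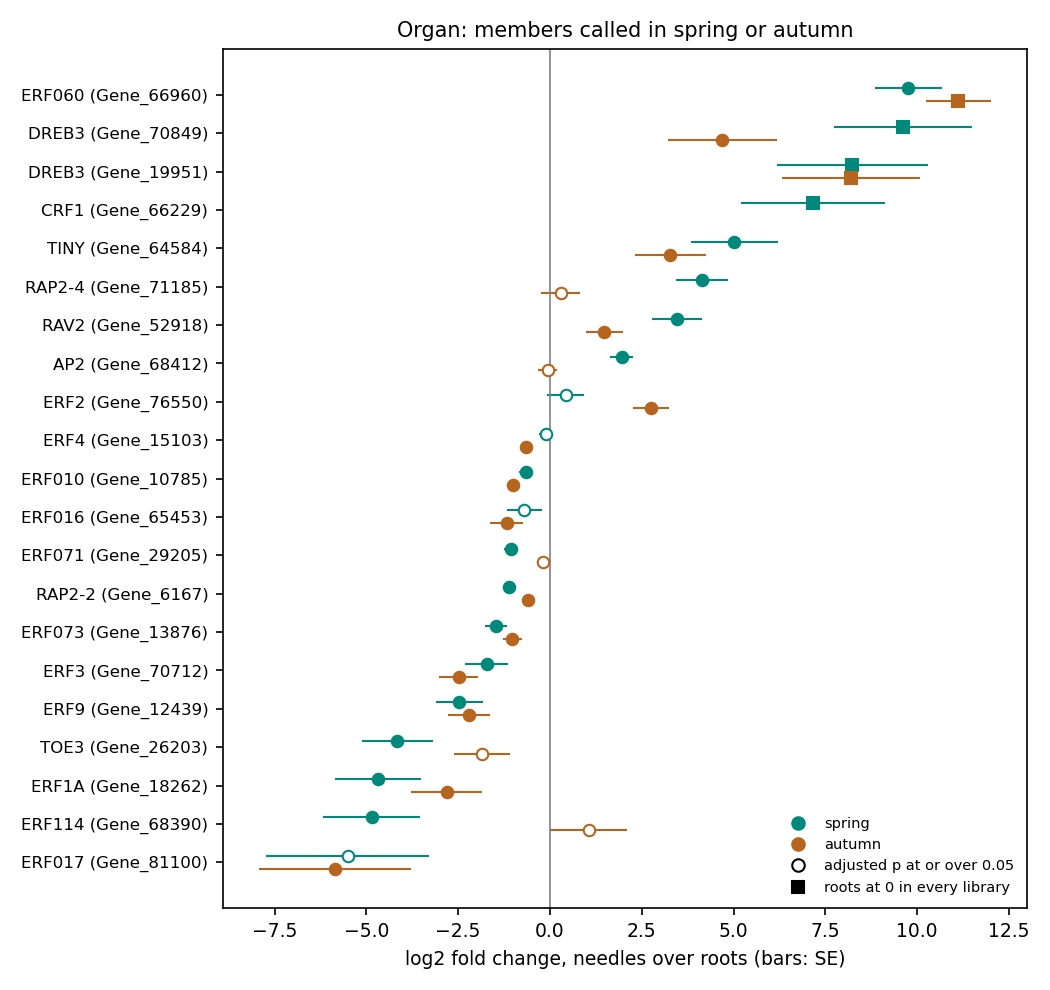
Log2 fold change of needles over roots with its SE, in spring and in autumn, for the 21 members called in either season; open symbols did not pass, and squares mark members at 0 in every root library of that season, whose fitted value is no bound. ERF060, both tested DREB3 features, TINY and RAV2 lie on the needle side in both seasons, and ERF1A, ERF9, ERF3, ERF073, RAP2-2 and ERF010 on the root side. CRF1 in autumn is not drawn.

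Few members passed between sites. In autumn needles 2 of 44 were called between Ronda and Yunquera, 1 higher and 1 lower at Ronda, against 1.71% of all features, 1.1% higher and 0.608% lower. AP2 (Gene_68412) had 102, 113 and 100.1 CPM at Ronda and 52.1, 49.6 and 51.7 CPM at Yunquera. The groups are tight and far apart, and it was higher at Ronda by 1.07 ± 0.13 on the log2 scale (adjusted p = 0.00975; 0.0557 without Yunquera replicate 3 and 0.364 with all 24 libraries). ERF010 had 115, 133 and 116 CPM at Ronda and 179.9, 192 and 206 CPM at Yunquera. It was lower at Ronda (-0.64 ± 0.12, adjusted p = 0.0283), but the call was lost without any 1 of these 6 libraries (up to 0.131), with all 24 libraries (0.112) and with no filter (0.0533).

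In spring needles edgeR called 0 of 44 members between sites, against 0% of all features, with 10 at an unadjusted p under 0.05, against 10.5% of all features. DESeq2 called 4 of 33 members there, against 3.03% of all features. In autumn roots edgeR called 0 of 47, against 0.0324% of all features (0.027% higher and 0.00539% lower), with 9 at an unadjusted p under 0.05, against 11.55% of all features. DESeq2 called 3 of 38 members there, against 4.08% of all features. In spring roots edgeR called 0 of 47, against 0% of all features, with 2 at an unadjusted p under 0.05, against 3.04% of all features. DESeq2 called 0 of 39 members there, against 0.495% of all features. The spring comparisons have 2 Ronda libraries against 3 from Yunquera.

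A group of 16 features with best hits to ERF013, ERF016, ERF017 or ERF018, all DREB-side ERF names of Arabidopsis, varied widely between libraries of 1 group. The list was drawn up after their values were seen and carries no test. Near-identical copies among them may share reads, so their separate values are uncertain. Their summed level was 15.1 to 75.4 CPM in spring needles and 9.42 to 26.5 CPM in autumn needles, and 6.30 to 205 CPM in spring roots and 14.5 to 112 CPM in autumn roots. For 12 of the 16, the 2 highest root libraries were Ronda replicate 1 and Yunquera replicate 2 of the spring. Among the needle libraries used, spring Ronda replicate 2 was the highest for 9. All 16 were tested by season in roots and 0 passed, against 5.54% of all features. The set-aside library labelled needles was the highest of all 24 for 15 of the 16.

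**Figure D5:**
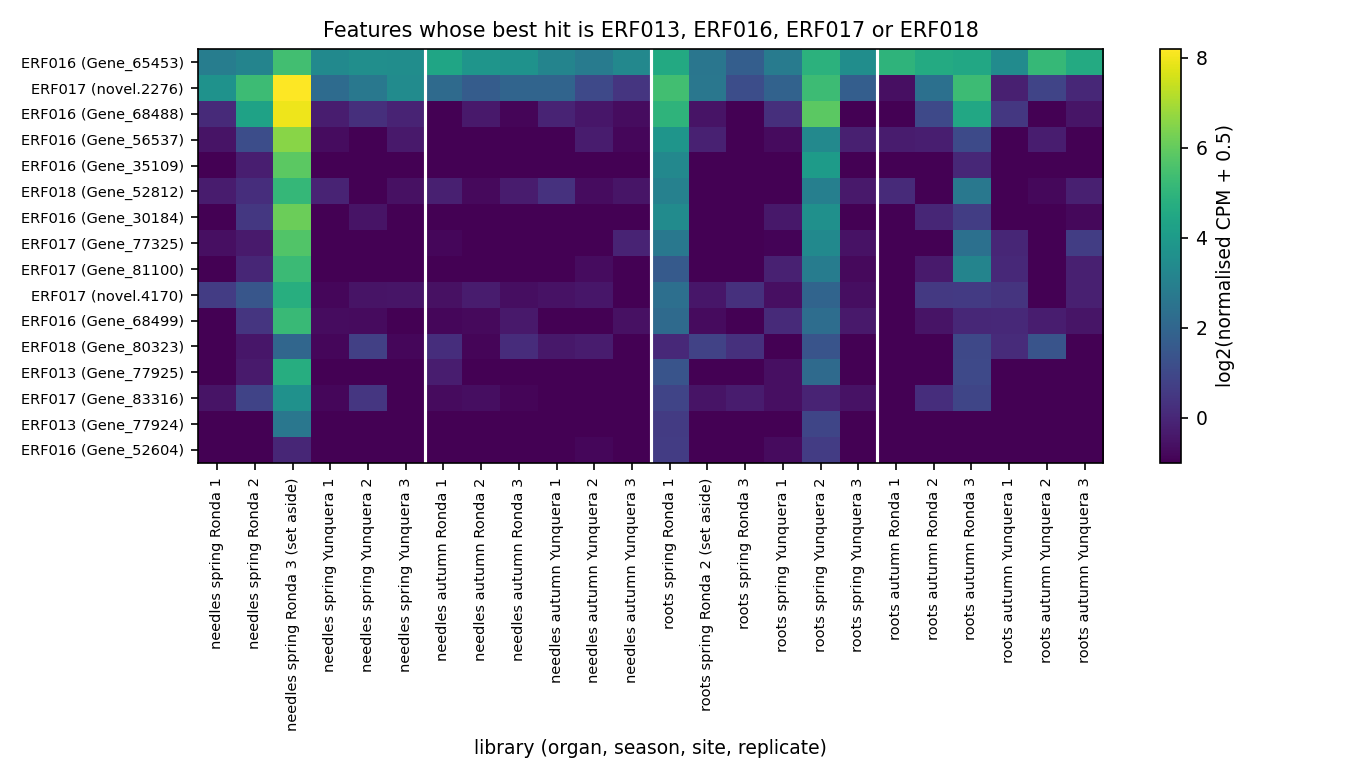
Level of the 16 features with best hits to ERF013, ERF016, ERF017 or ERF018 in each library, as log2(CPM + 0.5) on the colour scale. Rows are features and columns are libraries by organ, season, site and replicate. Single columns stand out through most rows, among them the set-aside spring needle library of Ronda and 1 spring root library from each site.

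Genes around the family were counted in lists taken from their best hits. Over all features, 8.79% rose and 6.49% fell in spring needles, and 2.41% rose and 3.13% fell in spring roots. Between organs, 18.8% were higher and 13.4% lower in autumn needles, and 19.3% higher and 8.94% lower in spring needles. These shares apply to every list below, and no list was tested against them. Of 4 ethylene synthesis features tested in needles, 3 rose in spring and 0 fell. An ACC oxidase, the last enzyme of ethylene synthesis (Gene_4282), averaged 1251 ± 304 CPM in spring needles (SD, n = 5) and 294 ± 150.3 CPM in autumn needles (SD, n = 6), a log2 fold change of 2.15 ± 0.27 (adjusted p = 0.00131). Of 9 ethylene perception and signalling features, 0 rose and 2 fell in spring needles. Both match CTR1, the kinase that holds ethylene signalling off in Arabidopsis, and Gene_31477 averaged 53.7 ± 9.86 CPM in spring needles and 97.7 ± 12.7 CPM in autumn needles (adjusted p = 0.00426). In roots 0 of 4 synthesis features rose and 1 fell in spring, and 0 of 9 perception features passed. Between organs, 5 of the 9 perception features were lower in autumn needles than in autumn roots and 1 was higher, and 4 were lower in spring and 0 higher. EIN3 (Gene_22090), the master transcription factor of the ethylene response, had a log2 fold change of needles over roots of -1.84 ± 0.19 in autumn (adjusted p = 7.23e-07) and -1.88 ± 0.21 in spring (adjusted p = 2.35e-06).

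Regulators that act upstream of DREB1 genes in Arabidopsis were measured although no DREB1 match was found. In needles 2 of 8 rose in spring and 1 fell, and in roots 0 of 7 passed. A match to ICE1 averaged 111 ± 44.0 CPM in spring needles and 41.4 ± 9.13 CPM in autumn needles (1.46 ± 0.20, adjusted p = 0.00237). Of 27 features of the kinds that DREB proteins activate in Arabidopsis, among them COR413 proteins and galactinol synthases, 6 rose and 11 fell in spring needles, and 0 rose and 10 fell in spring roots. Their median log2 fold change was -0.46 in needles and -1.41 in roots, against 0.03 for all features in each organ.

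The COR413 plasma membrane protein Gene_5317 averaged 19.9 ± 4.01 CPM in spring needles and 197 ± 43.3 CPM in autumn needles (-3.29 ± 0.20, adjusted p = 6.15e-05), and 30.9 ± 8.34 CPM in spring roots and 39.6 ± 12.6 CPM in autumn roots (adjusted p = 0.485). The galactinol synthase GOLS2 (Gene_10499), which starts the synthesis of raffinose sugars, averaged 0.593 ± 0.219 CPM in spring roots and 100.3 ± 117 CPM in autumn roots (-6.64 ± 0.54, adjusted p = 0.000676). In needles it went the other way, at 158 ± 122 CPM in spring and 25.6 ± 29.5 CPM in autumn (3.82 ± 0.61, adjusted p = 0.00433), and the seasonal changes of needles and roots differed (adjusted p = 1.11e-05). The needle seasons overlap, at 9.26 to 295 CPM in spring and 1.09 to 63.0 CPM in autumn. By site, GOLS2 averaged 49.1 CPM at Ronda and 2.15 CPM at Yunquera in autumn needles (4.52 ± 0.89, adjusted p = 0.0400). Of 4 features for abscisic acid bZIP factors, 1 rose and 1 fell in spring needles, and 0 rose and 1 fell in spring roots.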

How the data were processed

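Read counts per feature were deposited by the authors for 24 libraries, per the file header, as whole-number counts with no normalization. Per the submitters' processing notes, the tools were CASAVA, HISAT2 and featureCounts. The sources used here state neither their versions nor the build. Both stranded and unstranded library kits appear in the labels' protocols with no sample attached, so counting by strand is unknown.

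Members were taken by domain and by name. RAV was matched as a word in the hit name, which left out 19 hits where it stands inside another word or entry code. Another 5 features without the domain, whose names differ in case, were left out. The members and the gene lists were chosen with earlier results of these data known. Named members passed the adjusted threshold with at least 2 CPM in the higher group, or were among the 8 highest per kilobase in an organ; RAV2 was named outright. CRF1, ERF017 Gene_81100, the autumn value of DREB3 Gene_70849, and members named as not called were chosen after their values were seen.

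Group means were fitted to the counts by edgeR 4.0.16 (R 4.3.3) with trimmed-mean factors, and contrasts went through its quasi-likelihood test. Features had to pass filterByExpr at its count minimum of 10 and total minimum of 15. P-values were adjusted by Benjamini-Hochberg over every feature in a comparison, and a call means an adjusted p under 0.05. The 11 libraries of an organ gave season and site, and 22 gave organ and season by organ, 9 comparisons in all. Seasonal and organ values are means over both sites. The script was tested on simulated data. CPM levels used factors over 24 libraries, and a floor of 3 counts covers counting error only. Alternatives were size factors (RLE), no filter, DESeq2 1.42.0, all 24 libraries, the tree as a block (limma 3.58.1 voom with the tree as a random term for site), and each library left out. The lowest folds of members at 0 in roots were also computed without each needle library, an alternative chosen after seeing the data. The GOLS2 needle and COR413 root values by season were added later too. Replicates of a group differed by more than sampling noise. P-values measure the spread between these libraries.

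The labels number the trees, and same-numbered libraries deviated together in 4 of 5 pairs of seasons in needles (r = 0.24 to 0.54; tree 1, -0.31) and in all 5 in roots (0.16 to 0.36). Sequences of members are not used here.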

Additional observations from a re-analysis of the deposited data

Results flagged for a closer look

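The seasonal change of the AP2 feature (Gene_68412) differed between needles and roots by 2.01 on the log2 scale, needles minus roots, in a direct test of the difference. The same test gave 3.85 for RAP2-4 (Gene_71185). The 16 features with best hits to ERF013, ERF016, ERF017 or ERF018 summed to 1039 CPM in the set-aside library labelled spring needles of Ronda, replicate 3, which was used only in the alternative with all 24 libraries. Among the libraries used, the highest needle library had 75.4 CPM, and the highest root libraries had 205 and 160.4 CPM.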

How the results depend on the processing

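No member's called change reversed under any alternative run. Of 53 calls of a member in a comparison, 30 were kept in every fit without a library and 23 were lost in at least 1; 25 were lost with all 24 libraries as labelled, 11 with the tree as a block, 9 without the needle libraries of tree 1, 3 without the filter and 1 by DESeq2. With all 24 libraries 7 of 55 members were called between organs in spring, against 2002 of 20558 features. Without the set-aside libraries these were 17 of 55 and 6094 of 21600. For season by organ 0 of 55 members and 253 of 20558 features were called (2 of 55 and 783 of 21600 without the set-aside libraries). Between sites in autumn needles 0 of 43 members and 36 of 19499 features were called (2 of 44 and 352 of 20560). DESeq2 called more members and more of all features: 8 members by season in roots (15.04% of all features), 6 for season by organ (10.7%), 8 between sites in autumn needles (10.98%), 4 in spring needles (3.03%) and 3 in autumn roots (4.08%). With the tree as a block 2 of 47 members were called by season in roots, against 631 of 18538 features. By season in needles it called 9 of 44, against 1312 of 20560. Without the needle libraries of tree 1, season by organ called 1 of 55, against 551 of 21074 features. With no filter the site in autumn needles called 1 of 63, against 297 of 28245 features. Leaving out each library in turn gave 8 to 15 members by season in needles (fewest without spring Ronda replicate 2), 1 to 4 by season in roots, 1 to 4 for season by organ, 10 to 15 between organs in autumn, 12 to 19 in spring, and 0 to 3 between sites in autumn needles. Over all features those fits called 1631 to 3519 by season in needles, 358 to 1025 in roots and 28 to 650 between sites in autumn needles. The cause of these shifts was not tested. Groups of 2 or 3 libraries and levels near 1 CPM limit the site comparisons and the rarer members.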

Other observations

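The set-aside libraries were low or high in several members that separate the organs, but not all went with the opposite organ. Ronda replicate 3 of the spring needles had 867 CPM of RAP2-2, 644 CPM of ERF3, 64.9 CPM of ERF9 and 64.1 CPM of ERF1A (Gene_18262), and 0 CPM of ERF060. Its ERF3, ERF9 and ERF1A lay above every root library used (highest 324, 41.5 and 43.1 CPM). Its ERF073 was 14.4 CPM, below the lowest spring root library used (18.3 CPM). ERF114 (Gene_68390), called higher in spring roots, was at 0 there. DREB3 Gene_19951 had 0.903 CPM, although every root library used was at 0. Ronda replicate 2 of the spring roots had 106 CPM of AP2, 30.4 CPM of DREB3 (Gene_70849) and 11.9 CPM of ERF060. The family took 0.459% of counts in the first library and 0.118% in the other.

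A feature with an ERF088 hit (ap_29508, bases 679 to 1509), chosen after its values were seen, had 9.92 CPM in spring needles of Yunquera replicate 1 and 0.218 CPM in replicate 3, and was at 0 in the other 22 libraries.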
